A study of Mus musculus with 12 samples.

Results

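A set of 10 genes for the uptake of dying cells and debris by phagocytosis was described in astrocytes of aged mice labelled as astrocyte knockouts of the clock gene Bmal1 (Arntl). The genes were chosen by symbol for their known roles, with earlier results of these data known. They are the bridging molecules Mfge8, Gas6 and Pros1, the receptors Mertk, Tyro3, Itgav, Itgb5 and Megf10, the adaptor Gulp1 and the transporter Abca7. All 10 were found among the 41388 genes counted in each library, and all 10 passed the low-count filter of every comparison.

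RNA was sequenced from 12 libraries of 8 mice aged 20 months. KO astrocytes (n = 4) came from mice 132, 60, 62 and 73, labelled Cre+ knockout, and WT astrocytes (n = 4) from mice 56, 57, 64 and 78, labelled Cre- wildtype. KO flowthrough (n = 2, mice 132 and 60) and WT flowthrough (n = 2, mice 56 and 64) held the brain cells that were left after astrocytes had been captured on beads against the surface antigen ACSA-2. All mice, KO and WT, carried the strain label Bmal fl/fl; ALDH1L1-CreERT2 on a C57BL\6 background. All of them were given tamoxifen by gavage at 2 months of age, 2 mg per day over 5 days, so WT mice differed from KO mice in Cre and not in the floxed alleles or the drug. The Aldh1l1 promoter drives a tamoxifen-dependent Cre in astrocytes, so cells of other types in either fraction were not the target of the deletion.

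Cells that are to be engulfed expose phosphatidylserine on their surface. Bridging molecules bind this lipid and dock it to a receptor: Gas6 and Pros1 activate the receptor tyrosine kinases Tyro3, Axl and Mertk, and Mfge8 binds αv integrins, which include the pair of Itgav and Itgb5. Megf10 is a scavenger-type receptor related to Draper of the fruit fly, and with Mertk it is known for the engulfment of synapses by astrocytes. Gulp1 is an adaptor that binds the tails of such receptors, and Abca7 is a lipid transporter that promotes phagocytosis.

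The windows of 250 bases before the transcription start of Mfge8 (chr7:79149061-79149310, minus strand) and Mertk (chr2:128698665-128698914, plus strand) are printed because these members had the smallest p-values between KO and WT astrocytes. They are RefSeq sequences of the GRCm38.p6 build, 5′ to 3′. The capitals mark CANNTG, the general form of the E-box.
Mfge8: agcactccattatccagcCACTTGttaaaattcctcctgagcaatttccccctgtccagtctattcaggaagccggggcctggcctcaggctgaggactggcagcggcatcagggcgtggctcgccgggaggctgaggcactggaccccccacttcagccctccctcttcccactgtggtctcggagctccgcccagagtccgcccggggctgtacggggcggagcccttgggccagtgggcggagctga
Mertk: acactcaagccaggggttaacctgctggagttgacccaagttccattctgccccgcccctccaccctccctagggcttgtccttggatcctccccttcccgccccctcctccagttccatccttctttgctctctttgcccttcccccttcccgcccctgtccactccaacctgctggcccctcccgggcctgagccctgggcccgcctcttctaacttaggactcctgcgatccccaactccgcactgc
The Mfge8 window held 1 such match, CACTTG, and the Mertk window held none.

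Of the 10 members, 9 had a window in the RefSeq table, and both strands of each were searched. CACGTG, the canonical E-box of BMAL1 and CLOCK, was in 0 of 9, and CACGTT, a variant of it, in 0 of 9, against 6.02% and 3.85% of all 32851 windows searched. CANNTG, which includes CACGTG, was in 5 of 9 (Abca7, Gas6, Itgb5, Mfge8 and Pros1), against 66.2% of all windows. No match says only that these letters were not in the window.

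Total counts were 38.7 to 51.6 M per library (M, a factor of 1e+06). Arntl, the targeted gene, was not lower in KO astrocytes. It averaged 11.2 ± 1.74 CPM in KO astrocytes and 7.18 ± 1.41 CPM in WT astrocytes (SD, n = 4 each). All KO libraries, at 9.50 to 13.3 CPM, were above all WT libraries, at 5.38 to 8.80 CPM. Such a separation upward in KO held for 1.89% of 18527 genes. The log2 fold change was 0.66 with a standard error of 0.19 (edgeR, adjusted p = 0.473). The count covers all exons of the gene, and which exons are floxed is not given in the sources used here. This count does not check the deletion, and every KO or WT below means a library labelled so. Astrocyte markers (12 genes) summed to between 11311 and 23147 CPM in astrocytes, against 3252 to 8435 CPM in flowthrough, and each of the 12 was higher in astrocytes. Microglia markers (10 genes) summed to 664 to 3334 CPM in astrocytes and 12795 to 20925 CPM in flowthrough, and none was at 0 in any library. Both fractions were therefore mixed. Oligodendrocyte markers summed to 20395 to 38522 CPM in astrocytes and 12434 to 29862 CPM in flowthrough, and the fractions overlapped. Neuron markers summed to 1368 to 3091 CPM in astrocytes and 458 to 1270 CPM in flowthrough. KO 73 had the lowest astrocyte sum and the highest microglia sum of the astrocyte libraries. KO 73 and WT 78 also had 2411 and 1133 Xist counts, where the other 10 libraries had 10 or fewer, so each astrocyte group held 1 female-type mouse and both flowthrough groups held none.

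Levels are given in CPM, counts per 1e+06 of a library size scaled by TMM over all 12 libraries, and differences as log2 fold changes ± standard error with Benjamini-Hochberg adjusted p over all genes tested. A gene passed at an adjusted p under 0.05. The first comparison asks how the engulfment genes of captured astrocytes differed between the labels. No member passed it. Mfge8 and Mertk had the lowest p-values, both with lower values in KO, and the other 8 members had adjusted p-values of 0.965 or more.

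**Figure D1:**
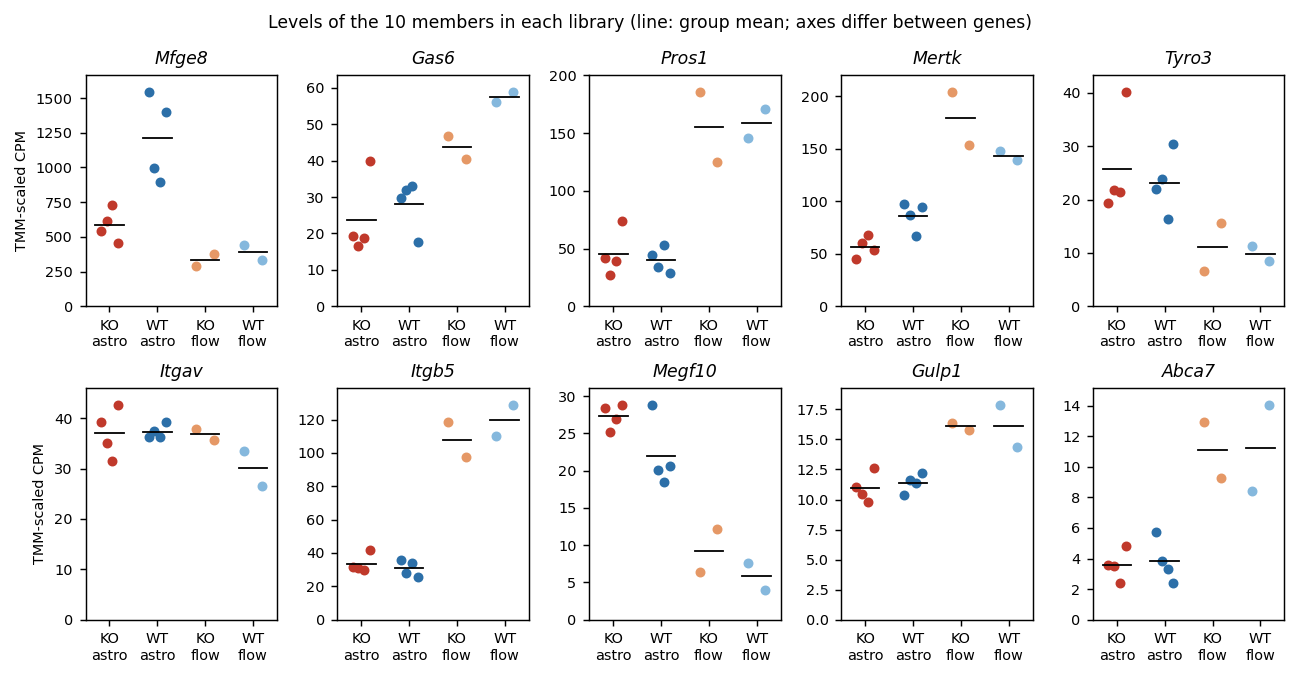
Levels of each of the 10 genes (TMM-scaled CPM, axis from 0, scale differs by gene) in every library of KO astrocytes, WT astrocytes, KO flowthrough and WT flowthrough; points are mice and lines are group means. The KO astrocyte points of Mfge8, at 454 to 733 CPM, lie below all WT astrocyte points, at 895 to 1545 CPM.

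Mfge8 (ENSMUSG00000030605, GRCm38 chromosome 7, 79133769 to 79149060, minus strand) encodes a secreted protein that links phosphatidylserine to αv integrins. KO astrocytes 132, 60, 62 and 73 had 542, 615, 733 and 454 CPM, against 1545, 993, 895 and 1402 CPM in WT astrocytes 56, 57, 64 and 78. The groups did not overlap: the highest KO library was below the lowest WT library. The means were 586 ± 118 CPM in KO and 1209 ± 314 CPM in WT (SD, n = 4 each), with -1.04 ± 0.22 as the log2 fold change (edgeR, adjusted p = 0.160), which did not pass. Of the 10 members, Mfge8 alone was separated in this way, against 4.06% of the 18527 genes tested in either direction, 1.89% higher and 2.16% lower in KO. Fewer cells of a type and less RNA per cell cannot be told apart in such bulk libraries.

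With DESeq2 the adjusted p for Mfge8 was 0.00150, and over all 17 alternatives it ran from that value to 0.617, with a log2 fold change between -1.16 and -0.82. Of the 12 astrocyte markers, 10 also had lower values in KO, with a median log2 fold change of -0.23 and none passing. Their sum was 11311 CPM in KO 73 and 19102 to 23147 CPM in KO 132, 60 and 62, against 17349 to 22265 CPM in WT astrocytes. Per 1000 CPM of astrocyte markers, Mfge8 stood at 28.4, 28.9, 31.7 and 40.1 CPM in KO 132, 60, 62 and 73 and at 81.0, 48.9, 51.6 and 63.0 CPM in WT 56, 57, 64 and 78. On this scale, chosen after the values were seen, the groups were again apart. The share of all genes apart on this scale was not computed, so the separation there cannot be weighed. In flowthrough Mfge8 had 288 and 375 CPM in KO 132 and 60, against 442 and 335 CPM in WT 56 and 64, and the groups overlapped. The log2 fold change there was -0.23 ± 0.30 (adjusted p = 1).

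Gas6 (ENSMUSG00000031451, chromosome 8, 13465374 to 13494535, minus strand), the ligand of all 3 kinases of the Tyro3, Axl and Mertk family, had 19.3, 16.6, 18.7 and 39.9 CPM in KO astrocytes 132, 60, 62 and 73, against 29.7, 32.0, 33.0 and 17.7 CPM in WT astrocytes 56, 57, 64 and 78. KO 73 stood above all WT libraries and WT 78 was low, so the groups overlapped through the 2 female-type mice. Its log2 fold change was -0.24 ± 0.30 (adjusted p = 0.995). It was -0.62 without KO 73 (adjusted p = 0.542) and -0.78 without both KO 73 and WT 78 (adjusted p = 0.0749), and the 17 alternatives gave adjusted p-values from 0.0749 to 0.99998, none of which passed. Microglia markers summed to 3334 CPM in KO 73 and 664 CPM in WT 78, against 678 to 1308 CPM in the other 6 astrocyte libraries, and their part in these values was not tested. In flowthrough Gas6 had 46.9 and 40.4 CPM in KO 132 and 60, against 56.0 and 58.9 CPM in WT 56 and 64. Both KO values lay below both WT values, with a log2 fold change of -0.40 ± 0.39 (adjusted p = 1).

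Pros1 (ENSMUSG00000022912, chromosome 16, 62854307 to 62929346, plus strand) encodes protein S, the anticoagulant that also bridges to Tyro3 and Mertk. Its levels were 41.5, 26.8, 39.5 and 74.2 CPM in KO astrocytes 132, 60, 62 and 73 and 44.7, 34.4, 53.3 and 29.2 CPM in WT astrocytes 56, 57, 64 and 78. KO 73 was again the highest library and the groups overlapped. On the log2 scale the difference was 0.18 ± 0.30 (adjusted p = 0.996), and it turned to -0.17 without KO 73. In flowthrough Pros1 had 186 and 125 CPM in KO 132 and 60, against 146 and 171 CPM in WT 56 and 64, with a log2 fold change of -0.03 ± 0.41. The WT values lay inside the range of the KO values.

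Mertk (ENSMUSG00000014361, chromosome 2, 128698956 to 128802894, plus strand) encodes the tyrosine kinase that is the main engulfment receptor of its family in many phagocytes. In astrocytes it had 45.3, 60.7, 67.6 and 53.7 CPM in KO 132, 60, 62 and 73, against 97.2, 86.9, 66.9 and 94.6 CPM in WT 56, 57, 64 and 78. The groups met at 1 point, where KO 62 exceeded WT 64. The means were 56.8 ± 9.53 CPM in KO and 86.4 ± 13.7 CPM in WT (SD, n = 4 each), and the log2 fold change was -0.60 ± 0.16 (edgeR, adjusted p = 0.392). No alternative passed, and the adjusted p ran from 0.103 with DESeq2 to 0.925. Per 1000 CPM of astrocyte markers, Mertk ranged from 2.37 to 4.75 CPM in KO and from 3.86 to 5.09 CPM in WT, with overlap through KO 73.

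The values of Mertk ran the other way in flowthrough. KO 132 and 60 had 204 and 153 CPM, against 148 and 139 CPM in WT 56 and 64, and both KO values were above both WT values. The log2 fold change was 0.32 ± 0.23 (adjusted p = 1). The difference of the KO minus WT change between astrocytes and flowthrough was -0.92 ± 0.28 on the log2 scale, which did not pass (adjusted p = 0.934). For Mfge8 the same difference was -0.81 ± 0.37 (adjusted p = 0.934). Cell type markers moved in the same comparisons. In KO flowthrough 11 of 12 astrocyte markers, 10 of 10 neuron markers and 10 of 10 endothelial markers had values above WT flowthrough, with medians of 0.44, 0.86 and 0.60 log2 units, and 4 of 4 choroid plexus markers had values below, with a median of -0.82. None of them passed. For the difference between the fractions' label changes, 11 of 12 astrocyte markers were below 0, with a median of -0.63. Their part in the values of Mertk and Mfge8 was not tested.

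**Figure D2:**
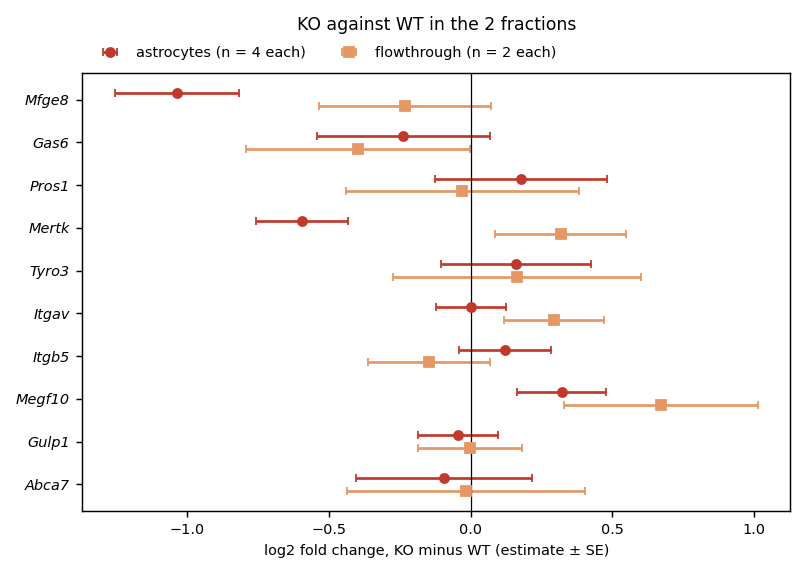
Log2 fold change of KO minus WT for each of the 10 genes in astrocytes (circles, n = 4 each) and flowthrough (squares, n = 2 each); bars are the standard error of the fit. Mfge8 at -1.04 and Mertk at -0.60 lie farthest below 0 in astrocytes, and Mertk lies at 0.32 in flowthrough.

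Tyro3 (ENSMUSG00000027298, chromosome 2, 119797733 to 119818104, plus strand) is the family's kinase best known from the nervous system. It had 19.3, 21.9, 21.3 and 40.2 CPM in KO astrocytes 132, 60, 62 and 73 and 21.9, 23.9, 16.4 and 30.3 CPM in WT astrocytes 56, 57, 64 and 78. The highest library of each group was its female-type mouse. KO minus WT was 0.16 ± 0.26 on the log2 scale (adjusted p = 0.995), and -0.15 without KO 73. In flowthrough its 2 KO values, 6.63 and 15.5 CPM in mice 132 and 60, enclosed the WT values of 11.3 and 8.45 CPM in mice 56 and 64 (log2 fold change 0.16 ± 0.44).

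Itgav (ENSMUSG00000027087, chromosome 2, 83724397 to 83806916, plus strand), the αv integrin chain, was the member with the least difference between KO and WT astrocytes. Its 4 KO astrocyte libraries had 39.3, 35.2, 31.4 and 42.6 CPM and the 4 WT astrocyte libraries had 36.3, 37.5, 36.2 and 39.3 CPM, in the same order of mice. The WT range lay inside the KO range, and the log2 fold change was 0.00 ± 0.12. In flowthrough Itgav had 37.9 and 35.7 CPM in KO 132 and 60, against 33.6 and 26.5 CPM in WT 56 and 64, apart but not passing (0.29 ± 0.18, adjusted p = 1). Gm13684, on the opposite strand, shares 634 exonic bases with Itgav, 5.90% of its counted length, and had 4 to 187 counts per library; the strand setting of the counting is not given in the sources used here.

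Itgb5 (ENSMUSG00000022817, chromosome 16, 33829665 to 33949153, plus strand), the β5 chain that pairs with Itgav, had 31.5, 31.1, 29.6 and 41.6 CPM in KO astrocytes 132, 60, 62 and 73 and 35.7, 27.9, 34.2 and 25.8 CPM in WT astrocytes 56, 57, 64 and 78. KO 132, 60 and 62 were close to each other and KO 73 stood above every WT library. KO minus WT was 0.12 ± 0.16 (adjusted p = 0.995), and -0.01 without KO 73. In flowthrough KO mice 132 and 60 had 118 and 97.7 CPM, against 110 and 129 CPM in WT mice 56 and 64, which overlapped (-0.15 ± 0.22).

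Megf10 (ENSMUSG00000024593, chromosome 18, 57133090 to 57297467, plus strand), the Draper-related receptor, had 28.3, 25.2, 27.0 and 28.8 CPM in KO astrocytes 132, 60, 62 and 73, against 28.8, 20.0, 18.5 and 20.6 CPM in WT astrocytes 56, 57, 64 and 78. All KO libraries were above 3 of the WT libraries, and WT 56 was as high as KO 73. The means were 27.3 ± 1.6 CPM in KO and 22.0 ± 4.63 CPM in WT (SD, n = 4 each), and the log2 fold change was 0.32 ± 0.16 (edgeR, adjusted p = 0.965). In flowthrough Megf10 was low, at 6.40 and 12.1 CPM in KO 132 and 60 and 7.62 and 4.00 CPM in WT 56 and 64. The log2 fold change there was 0.67 ± 0.34 (adjusted p = 1), with overlap of the groups.

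Gulp1 (ENSMUSG00000056870, chromosome 1, 44551511 to 44796838, plus strand), the adaptor, spanned a narrow range: 11.01, 10.5, 9.76 and 12.6 CPM in KO astrocytes 132, 60, 62 and 73, and 10.4, 11.6, 11.3 and 12.2 CPM in WT astrocytes 56, 57, 64 and 78. The log2 fold change was -0.05 ± 0.14. Flowthrough had 16.4 and 15.8 CPM in KO 132 and 60, inside the WT values of 17.9 and 14.4 CPM in mice 56 and 64. Abca7 (ENSMUSG00000035722, chromosome 10, 79996494 to 80015572, plus strand), the transporter, had 3.55, 3.51, 2.42 and 4.79 CPM in KO astrocytes and 5.75, 3.87, 3.34 and 2.38 CPM in WT astrocytes in the same order of mice. The groups overlapped (-0.10 ± 0.31). Flowthrough held 12.9 and 9.26 CPM in KO mice 132 and 60, against 8.40 and 14.05 CPM in WT 56 and 64 (-0.02 ± 0.42).

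Counted over the set, 0 of 10 members passed between KO and WT astrocytes, where 0.232% of 18527 genes did (27 genes, or 0.146%, higher and 16, or 0.0864%, lower in KO). An unadjusted p under 0.05 was found for 2 members, Mfge8 and Mertk, against 5.37% of all genes. DESeq2 called 184 genes and 1 member, Mfge8, and limma-voom called 31 genes and 0 members. The members' median log2 fold change was -0.02, against 0.00 over all genes, with 5 members above 0 and 5 below. Without KO 73 and WT 78, Mfge8 was at -0.86 (adjusted p = 0.228) and Mertk at -0.53 (adjusted p = 0.420), and 36 genes and 0 members were called.

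Between KO and WT flowthrough 0 of 10 members passed, against 0.00476% of 20997 genes. None had an unadjusted p under 0.05, against 4.63% of genes, and neither DESeq2, which called 22 genes, nor limma-voom, which called 0, called a member. With the mouse as a random effect, no gene was called. In 3 members the flowthrough groups did not overlap (Mertk and Itgav higher, Gas6 lower in KO), which with 2 libraries a group held for 33.6% of all genes. The members' median was -0.01, against 0.04 over all genes.

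For the difference between these 2 comparisons, edgeR called 0% of 20997 genes and 0 of 10 members. An unadjusted p under 0.05 was found for 828 genes, 3.94% of those tested, and for 1 member, Mertk. DESeq2 called 8 genes and limma-voom 0, with no member among them. The median over members was -0.07, against -0.03 over all genes.

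KO 73 was the highest KO astrocyte library for 8 of the 10 members and the lowest for Mfge8, and Mertk was the remaining exception. It held 3334 CPM of microglia markers, against 678 to 1300 CPM in the other 3 KO astrocyte libraries, and 11311 CPM of astrocyte markers, against 19102 to 23147 CPM. Cx3cr1 and P2ry12, defining genes of microglia, had 393 and 471 CPM there, against at most 184 and 173 CPM in the other KO astrocyte libraries. A covariate that averaged the neuron, endothelial, oligodendrocyte and microglia marker lists was added to the edgeR fit of KO minus WT astrocytes. Gas6 was then at -0.83 (adjusted p = 0.0969) and Pros1 at -0.49 (adjusted p = 0.0781). Mfge8 was at -0.82 (adjusted p = 0.120) and Mertk at -0.46 (adjusted p = 0.236). With it 0 members passed, against 0.923% of all genes. The part of microglia alone in the members' values was not tested. Across the label comparison, all 10 microglia markers and all 10 oligodendrocyte markers had values above WT in KO astrocytes, with medians of 0.65 and 0.78 log2 units and none passing. WT astrocyte libraries held 664 to 1308 CPM of microglia markers, a range that only KO 73 exceeded.

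**Figure D3:**
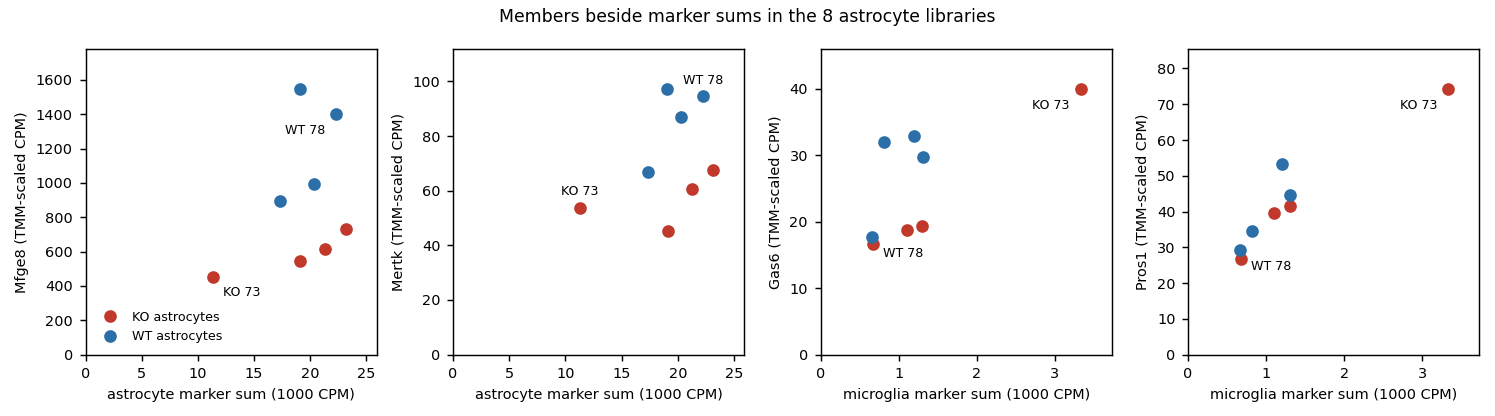
Members (TMM-scaled CPM) plotted against summed astrocyte markers (Mfge8, Mertk) or summed microglia markers (Gas6, Pros1), both axes linear and from 0, in the 8 astrocyte libraries (red KO, blue WT). KO 73, at 3334 CPM of microglia markers, is the highest point for Gas6 and Pros1, and the KO points of Mfge8 lie below the WT points.

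The second question was in which fraction the genes were found. Of the 10 members, 9 differed between astrocytes and flowthrough, against 49.2% of 20997 genes. Megf10, Mfge8 and Tyro3 were higher in astrocytes (3 of 10, against 24.8% of genes), and Pros1, Itgb5, Abca7, Mertk, Gas6 and Gulp1 were lower (6 of 10, against 24.4%). The members' median was -0.74, against 0.00 over all genes. In these libraries, then, 3 of the 10 engulfment genes were higher in the astrocyte fraction and 6 were higher in the cells left after capture.

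Megf10 had the largest excess of the members in astrocytes, at 1.74 ± 0.23 on the log2 scale (adjusted p = 0.000128). The log2 ratio within the mice that gave both fractions was 2.15, 1.06, 1.92 and 2.21 in KO 132, KO 60, WT 56 and WT 64. Mfge8 was higher by 1.23 ± 0.20 (adjusted p = 0.000448), with ratios of 0.92 and 0.71 in KO mice 132 and 60, against 1.80 and 1.42 in WT mice 56 and 64. Tyro3 was higher by 1.22 ± 0.28 (adjusted p = 0.00413), with ratios from 0.49 in KO 60 to 1.54 in KO 132.

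Pros1 had the lowest fold change, -1.87 ± 0.24 (adjusted p = 0.000128), followed by Itgb5 at -1.82 ± 0.13 (adjusted p = 6.59e-06) and Abca7 at -1.59 ± 0.25 (adjusted p = 0.000399). Mertk was lower in astrocytes by a log2 fold change of -1.19 ± 0.14 (adjusted p = 6.0e-05). Its ratios were -2.17 and -1.34 in KO mice 132 and 60, against -0.61 and -1.05 in WT mice 56 and 64. Gas6 was at -0.96 ± 0.23 (adjusted p = 0.00566) and Gulp1 at -0.53 ± 0.11 (adjusted p = 0.00241). Each of these 9 members had the same direction in 4 of 4 mice. Itgav did not pass (0.16 ± 0.11, adjusted p = 0.233) and was higher in astrocytes of 3 mice and lower in 1. The ratio of both KO mice was below that of both WT mice for 5 of the 10 members (Mfge8, Mertk, Gas6, Pros1 and Itgav) and above it for 0, against 23.3% and 15.2% of the 19182 genes counted in all 8 libraries of these mice.

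**Figure D4:**
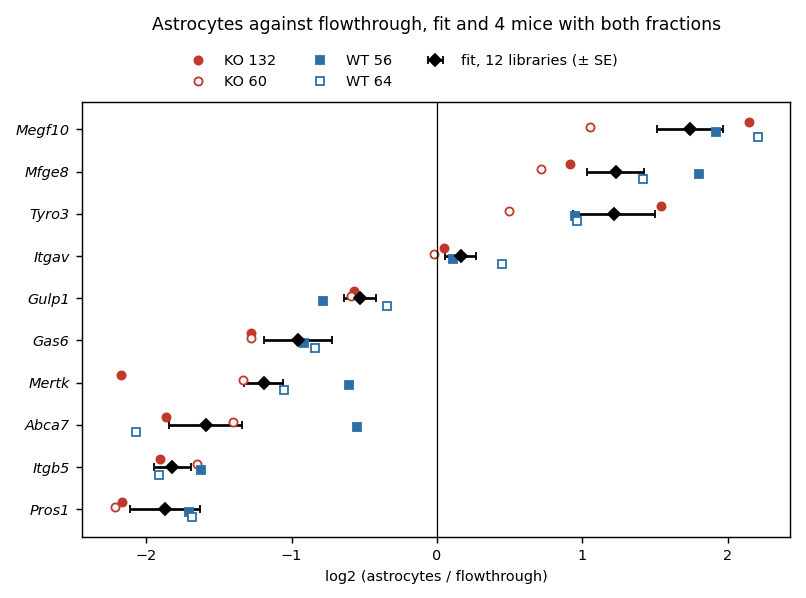
Log2 ratio of astrocytes over flowthrough for each of the 10 genes: diamonds with standard errors are the fit over 12 libraries, and circles (KO) and squares (WT) are the 4 mice with both fractions. Megf10, Mfge8 and Tyro3 lie above 0 and 6 members lie below 0 in every mouse.

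Choroid plexus markers (4 genes) summed to 1778 to 9228 CPM in astrocytes, against 19154 to 39834 CPM in flowthrough. All 10 microglia, 10 endothelial and 4 choroid plexus markers were lower in astrocytes, and all 12 astrocyte and 10 neuron markers were higher. With a covariate that averaged the marker lists of neurons, endothelial cells, oligodendrocytes and microglia, 5 members passed, and Mfge8 (0.96, adjusted p = 0.0800), Gas6 (-0.19, adjusted p = 0.682), Gulp1 (-0.37, adjusted p = 0.230) and Abca7 (-1.36, adjusted p = 0.0668) did not. Over all genes the share that passed also fell, to 12.3% of 20997 genes with the covariate, against 49.2% without it. Every other alternative, the mouse as a block included, called the same 9 members.

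Levels of different genes were compared per kilobase of counted exon, as RPKM of the TMM-scaled library. Mfge8 was the most abundant member in every group, at a mean of 275.8 RPKM in KO astrocytes, 569 RPKM in WT astrocytes, 156 RPKM in KO flowthrough and 183 RPKM in WT flowthrough, and its range overlapped that of no other member. Mertk came next in astrocytes, at 13.1 RPKM in KO and 19.9 RPKM in WT. In WT its lowest library, 15.4 RPKM, was above the highest of Gas6, 12.7 RPKM, whereas in KO the ranges of Mertk, Pros1, Itgb5 and Gas6 overlapped from each to the next. Abca7 was the least abundant member in astrocytes, at 0.528 RPKM in KO and 0.568 RPKM in WT, and Megf10 had the lowest mean in flowthrough, at 1.20 RPKM in KO and 0.753 RPKM in WT. In KO flowthrough its range, 0.8291 to 1.57 RPKM, overlapped those of Abca7 (1.37 to 1.92 RPKM) and Tyro3 (1.07 to 2.51 RPKM), and in WT flowthrough it lay below both.

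Among the kinases, Mertk exceeded Tyro3 per length by 1.91 to 4.52 times in KO astrocytes and 4.46 to 6.34 times in WT astrocytes. The ranges met between KO 62 and WT 78. In flowthrough the ratio was 14.1 to 44.0 in KO and 18.7 to 23.5 in WT, above all 8 astrocyte libraries. Between the ligands, Gas6 per Pros1 was 0.736 to 0.979 in KO astrocytes and 0.954 to 1.47 in WT astrocytes. In flowthrough it was 0.398 and 0.511 in KO mice 132 and 60, against 0.606 and 0.542 in WT mice 56 and 64, below all astrocyte libraries.

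Other genes of the pathway were taken as 74 symbols in 7 lists by role. Of the 72 that could be tested between KO and WT astrocytes, 0 passed with edgeR, 3 had an unadjusted p under 0.05, a share below the 5.37% of all genes. Values above 0 were found for 53 of them, 73.6%, against 50.8% of all genes, and their median was 0.15, against 0.00 over all genes. The microglia markers, 10 of 10 above 0 with a median of 0.65, moved in the same direction, and their part was not tested. Their sum was 3334 CPM in KO 73. In KO 132, 60 and 62 it was 678 to 1300 CPM, inside the WT range of 664 to 1308 CPM. Among bridging and opsonin genes, C4b, a complement component, had 148 ± 34.9 CPM in KO and 89.0 ± 13.6 CPM in WT (SD, n = 4 each), which is 0.74 ± 0.19 on the log2 scale (adjusted p = 0.310). It was the 1 gene of these lists that DESeq2 called (adjusted p = 0.0475, with 0.0475 to 0.814 over 17 alternatives), and limma-voom called 0. Edil3, a relative of Mfge8, had 70.2 ± 35.7 CPM in KO and 43.0 ± 10.8 CPM in WT (0.71 ± 0.32, adjusted p = 0.931). The other 2 genes under an unadjusted 0.05 were Adgrb1, a phosphatidylserine receptor, at -0.38 ± 0.16, and Ptk2, a kinase of integrin signalling, at 0.33 ± 0.12.

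The remaining genes named by their p in each list did not pass either. Itgb1, the β1 integrin chain, was at 0.27 ± 0.13 and Rhog, a small GTPase of the engulfment pathway, at 0.42 ± 0.21. Adam17, a protease that sheds Mertk from the cell surface, was at 0.52 ± 0.24, and Sirpa, the receptor of the signal that blocks engulfment, at -0.23 ± 0.12. The lipid scramblase Xkr8 was at 0.30 ± 0.22. The nuclear receptors Ppard and Pparg were at 0.30 ± 0.17 and -0.20 ± 0.29. Vkorc1l1 and Ggcx, of the vitamin K cycle that modifies Gas6 and Pros1, were at -0.11 ± 0.21 and 0.11 ± 0.22.

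In flowthrough, and for the difference between the fractions' label changes, 0 of 73 pathway genes passed with edgeR and 0 with DESeq2 or limma-voom, and 3 and 1 had an unadjusted p under 0.05, against 4.63% and 3.94% of all genes. That 1 gene was Adgrb1, which had 7.36 ± 1.06 CPM in KO astrocytes and 9.60 ± 0.717 CPM in WT astrocytes (SD, n = 4 each), and 3.31 ± 1.32 CPM in KO flowthrough and 1.87 ± 0.323 CPM in WT flowthrough (SD, n = 2 each). The difference was -1.21 ± 0.35 (adjusted p = 0.934).

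Between the fractions, 17 of the 73 were higher in astrocytes and 37 were lower, against 24.8% and 24.4% of all genes, so the share of higher genes was near that of all genes and the share of lower genes was above it. Bridging and opsonin genes split into 4 higher and 8 lower, with Tulp1 (2.55 ± 0.85), Tub (1.57 ± 0.28), both ligands of Mertk in the retina, and Edil3 (1.01 ± 0.35) among the higher. Tulp1 had low levels, at 0.109 to 0.324 CPM in flowthrough and 0.190 to 3.41 CPM in astrocytes. The complement subunits C1qa (-3.10 ± 0.37), C1qb (-3.19 ± 0.33) and C1qc (-3.19 ± 0.41) were lower. Receptors split into 5 higher and 13 lower. Axl, the third kinase of the Mertk family, was higher by 0.77 ± 0.14 and Megf11, the paralog of Megf10, by 1.59 ± 0.23, in the direction of Tyro3 and Megf10, and Adgrb1 by 1.75 ± 0.19. Itgam (-3.47 ± 0.29), Trem2 (-3.44 ± 0.31) and its partner Tyrobp (-2.99 ± 0.28), known from microglia, were lower.

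Signalling genes were 7 higher and 7 lower of 20, with Elmo2 and Dock1, which together activate Rac, at 1.16 ± 0.20 and 0.40 ± 0.10 and Ptk2 at 0.86 ± 0.12. Syk (-3.07 ± 0.25), Plcg2 (-2.78 ± 0.30) and Rhog (-1.52 ± 0.18) were lower. Both sheddases, Adam10 (-1.21 ± 0.14) and Adam17 (-1.69 ± 0.19), were lower in astrocytes, as Mertk was, and so was Sirpa (-0.88 ± 0.11). Among the genes of phosphatidylserine exposure, Xkr4 (1.32 ± 0.48) was higher and Ano6 (-0.99 ± 0.22) and Xkr8 (-0.69 ± 0.18) were lower. Of the vitamin K cycle, Vkorc1 (-0.66 ± 0.16) and Ggcx (-0.65 ± 0.18) were lower and Vkorc1l1 did not pass. None of the 5 nuclear receptor genes passed with edgeR, and 1 had an unadjusted p under 0.05. Microglia markers, 10 of 10 of them lower in astrocytes with a median of -3.68, moved with the lower genes, and their part was not tested.

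**Figure D5:**
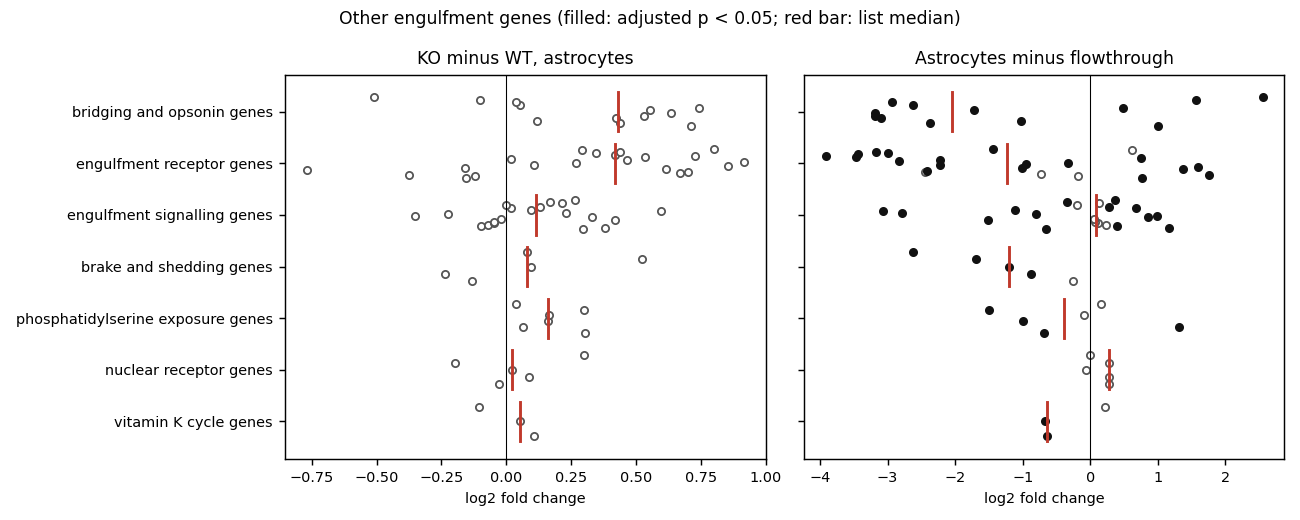
Log2 fold changes of the tested genes of 7 lists of other engulfment genes in KO minus WT astrocytes (left) and astrocytes minus flowthrough (right); each point is a gene, filled points had an adjusted p under 0.05 and red bars are list medians. No point is filled on the left, and 17 are filled above 0 and 37 below 0 on the right.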

How the data were processed

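Each library had a file of 41388 genes. Per the file headers, the deposited columns are a raw count, a CPM and an RPKM per gene. The deposited counts were whole numbers, the deposited CPM equalled the count per 1e+06 of the library total within 5.1e-11, and the authors' RPKM was that CPM per kilobase of summed exon length. The deposited CPM and RPKM served only for this check; the CPM and RPKM printed in the report were computed from the counts with TMM-scaled library sizes of all 12 libraries. The GRCm38 build and the tools featureCounts 1.4.6-p5, Subread, STAR 2.5.1a and bcl2fastq are named, per the submitters' processing notes. What each did, which annotation was taken and how strand was treated is not given in the sources used here. Symbols were matched to 40254 of the gene IDs.

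Genes were tested on counts with edgeR 4.0.16 in R 4.3.3 (quasi-likelihood test, TMM, filterByExpr, two-sided, Benjamini-Hochberg over all genes). KO and WT astrocytes were compared in a fit of their 8 libraries (18527 genes, 6 residual degrees of freedom), so those fold changes rest on a TMM scaling of 8 libraries. The other comparisons came from 1 fit to all 12 libraries with a mean for each of the 4 groups (20997 genes and 8 residual degrees of freedom). The script was tested on simulated data. Alternatives were RLE and library size scaling, other filters, DESeq2 1.42.0, limma-voom 3.58.1, an adjusted p under 0.1, a covariate of marker means, the mouse as a block, fits of more or fewer groups, each library left out in turn, and leaving out KO 73 and WT 78. Titles give the same animal number to an astrocyte and a flowthrough library in 4 mice. Their deviations from the group means correlated at -0.00664 (mouse 132), 0.352 (mouse 60), 0.155 (mouse 56) and 0.251 (mouse 64).

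Named were all 10 members, Arntl and, of each pathway list, the 2 genes with the smallest p between KO and WT astrocytes, any gene that passed between KO and WT, and up to 3 genes in each direction with the smallest p between the fractions. Of the genes this rule names, 1 is not reported here. The members, lists and rules were chosen with earlier results of these data known. Of the symbols, 74 of 74 pathway genes and 80 of 81 markers were matched. A count of 3, taken as the floor, was 0.0582 to 0.0775 CPM, which covers counting error only; no member was near it, the lowest having 101 counts. The p-values of KO against WT astrocytes measure the spread between mice of one label. Those of the fit to 12 libraries rest on a spread pooled over the 4 groups, astrocyte groups included. That fit took both libraries of a mouse as independent.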

Additional observations from a re-analysis of the deposited data

Results flagged for a closer look

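Groups of 4 astrocyte libraries were examined for the genes named in the report and for the astrocyte and microglia marker sums. In 9 of the 90 groups, 1 library stood far from the other 3. Chance gives this in about 1 of 20 independent groups. The groups here share the same libraries and are not independent, so their number cannot be weighed against that rate. The outlying library was KO 73 in 6 of the 9. Gas6 was at 39.95 CPM in KO 73, against 16.63 to 19.34 CPM in the other KO astrocyte libraries. Tyro3 was at 40.21 CPM there, against 19.34 to 21.87 CPM, and Itgb5 at 41.6 CPM, against 29.62 to 31.54 CPM. The complement genes C1qb and C1qc were at 794.7 and 120.7 CPM in KO 73, against 187.1 to 285.3 CPM and 20.54 to 32.65 CPM. Rhog was at 81.26 CPM in KO 73, against 52.46 to 53.44 CPM.

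Among WT astrocytes, Rhog was highest in WT 56 at 62.53 CPM, against 38.78 to 39.81 CPM in the other 3. Tulp1 was highest in WT 56 as well, at 3.407 CPM, against 0.4235 to 0.9123 CPM. Sirpa was lowest in WT 64 at 120.7 CPM, against 157.6 to 158.9 CPM.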

How the results depend on the processing

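For the 10 members, 206 of 210 values between the fractions, 148 of 170 between KO and WT astrocytes and 205 of 220 between KO and WT flowthrough kept their direction and their side of the threshold. Called genes between KO and WT astrocytes numbered 28 with library size scaling (21 higher and 7 lower in KO, against 27 and 16), 184 with DESeq2, 171 with the marker covariate, 75 at an adjusted p under 0.1 and 12 to 37 with 1 library left out, the 12 without KO 132 and the 37 without KO 73; leaving out any of the others gave 16 to 22. Members called there were 1 with DESeq2. In flowthrough 22 genes were called with DESeq2, 0 with limma-voom, with flowthrough libraries alone and with the replicate block, and 0 to 5 with 1 library left out, the 5 without KO flowthrough 132 and the 0 without WT flowthrough 56 or 64. DESeq2 called 8 genes for the difference between the fractions' label changes. The marker covariate gave 2588 genes and 5 members between the fractions. The fit with the mouse as a fixed block held only the mice that gave both fractions, with 2 residual degrees of freedom. It called 10955 of 20595 genes between the fractions and 0 genes for the difference of label changes. The fit to 12 libraries without the block called 10333 of 20997 genes between the fractions. Each fit called 9 members there, and no call of a member changed. The fits differed in their libraries as well as in the block, so the effect of pairing alone was not tested. Library size scaling moved the median of all genes to -0.14 between the fractions, against 0.00, and left the 9 member calls in place; it moved that of the difference of label changes to 0.07, against -0.03. A left-out library that leaves 1 in a group was assumed to vary like the other groups.

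Signs turned only for members that had not passed. In KO minus WT astrocytes these were Pros1 (-0.49 with the covariate, -0.29 without KO 73 and WT 78), Tyro3 (-0.067 with the covariate), Itgav (-0.0057 with limma-voom, -0.0078 with all 12 libraries, -0.085 with the covariate, -0.049 without KO 73 and WT 78), Itgb5 (-0.11 with the covariate, -0.081 without KO 73 and WT 78) and Gulp1 (0.0022 with library size scaling). In KO minus WT flowthrough they were Pros1 (0.21 with the replicate block), Tyro3 (-0.24 with the covariate), Gulp1 (0.0049 with a CPM of at least 1, 0.0026 with limma-voom) and Abca7 (0.022 with limma-voom, 0.10 with the replicate block). With 1 library left out, the astrocyte values ran from -0.17 to 0.36 for Pros1, -0.15 to 0.31 for Tyro3, -0.076 to 0.074 for Itgav, -0.0060 to 0.20 for Itgb5, -0.12 to 0.0079 for Gulp1 and -0.28 to 0.17 for Abca7. The flowthrough values ran from -0.35 to 0.23 for Pros1, -0.58 to 0.65 for Tyro3, -0.15 to 0.16 for Gulp1 and -0.34 to 0.40 for Abca7. The cause was not tested.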
